A study of Capra hircus with 6 samples.

Results

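The genes described here encode the protein components of the mitochondrial ribosome (mitoribosome), and they were compared between goat secondary hair follicle dermal papilla cells (SHF-DPCs) cultured with and without all-trans retinoic acid (ATRA). A row of the count table was taken as a member when its identifier or its gene symbol, read in capitals, was MRPL or MRPS followed by a number and, at most, a letter from A to C. This rule used names alone and found 83 of the 15944 genes listed. Of these, 77 were listed under their own symbol and 6 under a LOC number whose symbol was that of another member, which are called copies below. RNA-seq libraries of SHF-DPCs treated for 24 h with 100 µM ATRA (ATRA group, n = 3) were compared with those of cells given medium alone (Control group, n = 3). All 6 libraries came from wild-type primary cultures grown from skin of adult Albas cashmere goats (3 years old), and the labels place them in 1 batch. The study's methods give 3 independent animals, but they do not say whether a Control and an ATRA culture of the same number shared an animal.

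Mitochondria carry their own DNA, and its few messenger RNAs are translated inside the organelle by a dedicated ribosome. The ribosomal RNAs of this particle are made in the mitochondrion, whereas its proteins are encoded in the nucleus, translated in the cytosol, and imported. MRPL genes encode proteins of the large subunit, which forms peptide bonds, and MRPS genes those of the small subunit, which reads the messenger RNA. Some have counterparts in the bacterial ribosome and others occur only in mitochondria. The products of mitochondrial translation are core subunits of the respiratory chain and ATP synthase, so the mitoribosome is known for its part in oxidative phosphorylation. ATRA is the active form of vitamin A and acts through nuclear retinoic acid receptors.

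The 6 libraries held 35532339 to 38012771 counts. The cells were checked against markers of their labelled type. Of 14 dermal papilla markers, 13 were listed, and ACTA2, VIM, VCAN, THY1, and PDGFRA were abundant in every Control library, whereas PROM1 (CD133), ALPL, and CORIN had 0 or 1 count in each of the 6 libraries. Summed over the list, these markers had 28022 to 30702 normalised CPM (counts scaled to a common library total) in Control and 1767 to 1813 in ATRA. VIM held most of each sum, with means of 19158 in Control and 1595 in ATRA. ACTA2 went from a mean of 6582 to 8.37, VCAN from 1641 to 32.4, THY1 from 944 to 14.1, and PDGFRA from 865 to 129. Of the 8 dermal papilla markers tested, 7 were lower in ATRA and 0 higher (edgeR adjusted p under 0.05). All 10 proliferation markers fell, from a sum of 700 to 722 normalised CPM to 56.0 to 62.7. The leukocyte markers, of which 5 of 6 were listed and ITGAM was at 0 to 2 counts, summed to 9.27 to 12.9 in Control and 41.3 to 44.2 in ATRA, and the endothelial markers, of which 5 of 6 were listed and CDH5 was at 0 or 1 count, to 0.903 to 1.24 and 6.19 to 9.16. The rise in the leukocyte sum lay in CD14 (log2 fold change, log2FC, 2.18) and CD68 (log2FC 1.41). CSF1R had 5, 3, and 4 counts in Control and 7, 3, and 5 in ATRA, and CD3E had 1, 0, and 1 and 2, 5, and 3. PTPRC was not listed. Of the endothelial markers, PECAM1 had 0 counts in each Control library and 242, 340, and 206 in ATRA, and KDR had 5, 6, and 10 counts in Control and 2, 1, and 0 in ATRA. The keratinocyte markers (6 of 8 listed, with TP63 at 0 or 1 count) summed to 3.11 to 4.98 and 5.37 to 5.97, with KRT10 higher in ATRA and KRT14 at 20, 14, and 10 counts in Control and 3, 0, and 0 in ATRA, and the melanocyte markers (3 of 6 listed, with TYRP1 at 0 or 1 count) to 16.1 to 17.6 and 32.2 to 39.0, with MITF higher (log2FC 1.33) and PMEL lower (log2FC -0.90). The part of these shifts in the results on mitoribosomal genes was not tested, and in bulk samples fewer cells of a type and less RNA per cell cannot be told apart. ATRA replicate 2 had the lowest normalised CPM of its group for 66 of the 81 members tested, and counts without it are given below.

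Most mitoribosomal genes differed little between ATRA and Control cells, and those that differed went both ways. Of the 83 members, 81 had enough reads to be tested. With edgeR's quasi-likelihood test and an adjusted p under 0.05, 32 were higher in ATRA, 21 were lower, and 28 did not pass, so that 65.4% of the members tested passed. Over all 12588 genes tested, 79.7% passed, with 40.9% higher and 38.7% lower. Differentially expressed genes (DEGs), which needed a log2 fold change (log2FC) beyond 1 in either direction and an unadjusted p under 0.05, numbered 4 members or 4.94%, of which MRPL38, MRPL45, and MRPL9 were higher and MRPS28 was lower. The corresponding share over all genes was 31%. The Control and ATRA libraries did not overlap for 51 members (63.0%), against 80.1% of all genes. Without ATRA replicate 2, 37 members were higher and 21 lower, with 3 DEGs higher and 1 lower. The share of all genes called without that library was not counted, so this shift is no result about the members. R's t.test, at the same adjusted threshold, called 21 members higher and 16 lower. The share of all genes called by that test was not counted, so this drop is no result about the members.

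The members' log2FC values lay in a narrower band than those of all genes. Their median was 0.09 and that of all genes 0.04. The middle 50% of members spanned 0.54 on the log2 scale, from -0.17 to 0.37, whereas the middle 50% of all genes spanned 1.18. The median size of the log2FC, whatever its direction, was 0.28 for members and 0.59 for all genes. Between -0.5 and 0.5 lay 59 members (72.8%) against 44.0% of all genes. This was not particular to the members. The middle 50% spanned 0.28 for cytosolic ribosomal protein genes and 0.48 for genes of respiratory complexes I and II, both described below. Of these genes, 81.8% and 82.9% lay between -0.5 and 0.5, and 0% of either list were DEGs. The median standard error (SE) was 0.0868 for members and 0.0842 for all genes, so the log2FC of a typical member was measured about as closely as that of a typical gene.

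**Figure D1:**
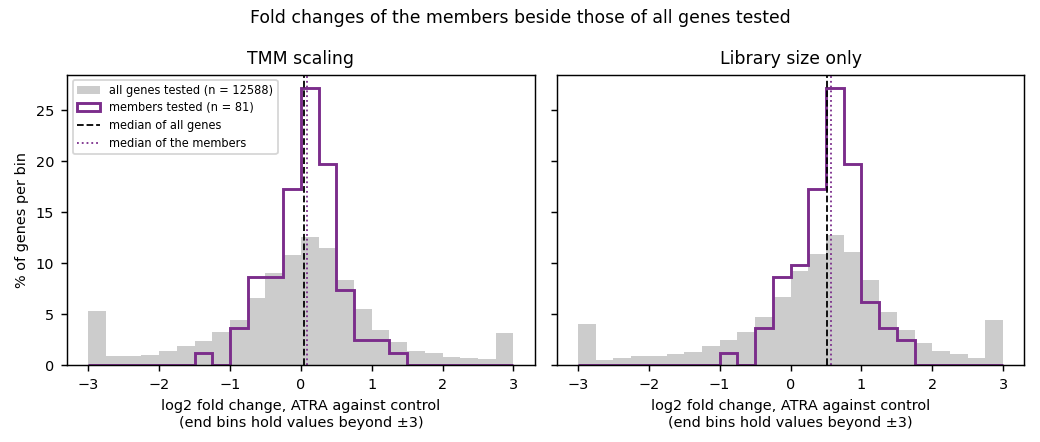
Distribution of log2FC (ATRA against Control) for the mitoribosomal genes tested and for all genes tested. The middle 50% of members lay between -0.17 and 0.37, and the most extreme were at -1.33 and 1.26.

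The direction of a change of this size depended on how libraries were scaled. The TMM scaling factor averaged 0.847 ± 0.00499 (SD, n = 3) in Control and 1.18 ± 0.0158 (SD, n = 3) in ATRA. Scaled by library size only, the median log2FC of all genes was 0.52 and that of members 0.57, with 64 members higher and 4 lower, beside 62.9% of all genes higher and 22.7% lower. Higher members were then 94.1% of the members called, against 60.4% with TMM and 68.5% with upper quartile scaling. Of all genes tested, 44.8% were higher and 35.8% lower with upper quartile scaling, beside 40.9% and 38.7% with TMM. The share of higher genes among all genes called was not counted, so these percentages are no result about the members. A change of scaling shifts the log2FC of all genes by nearly the same amount, so the distance of members from the median of all genes, 0.05 with TMM, hardly depends on it. Under all 5 scalings, 31 members passed as higher and 4 as lower, the latter being MRPS28, MRPS25, MRPS26, and MRPL54. Library size only moves log2FC values upward, so it ends lower calls more readily than higher ones. The share of all genes passing under all 5 scalings was not counted, so the balance of 31 to 4 is no result about the members. By the same shift, 10 of the 21 members lower with TMM had a log2FC above 0 by library size only, so their direction depends on the scaling. Which scaling is right for these libraries was not tested. All values below use TMM.

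**Figure D2:**
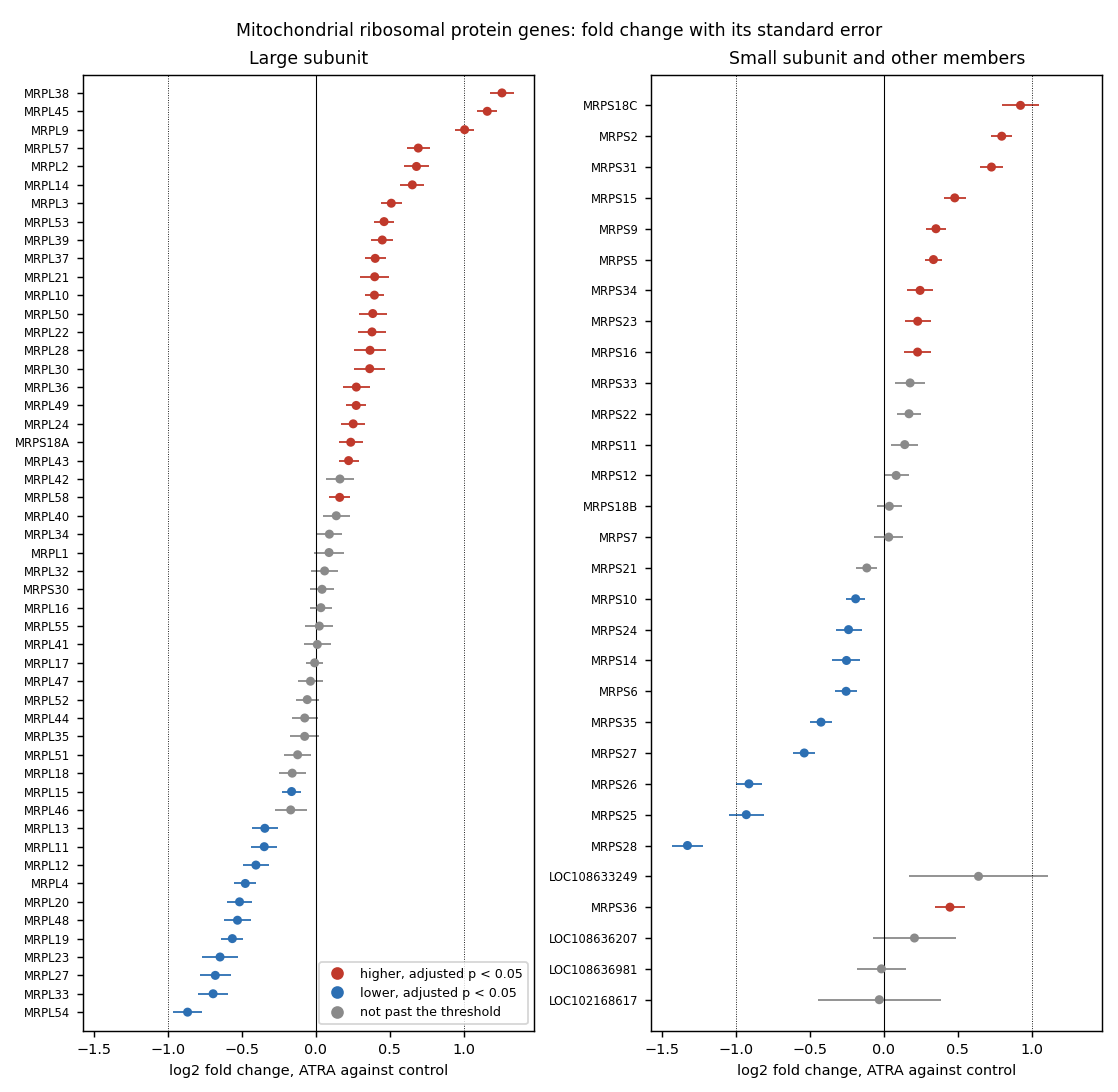
The log2FC (ATRA against Control) of each mitoribosomal gene tested, grouped as large subunit, small subunit, and other members. Lines span the log2FC ± its SE and are not confidence intervals. MRPS28 at -1.33 and MRPL38 at 1.26 are the ends of the range, and each subunit holds changes in both directions.

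In the large subunit, 51 genes were tested, of which 22 were higher, 12 were lower, and 17 did not pass, with a median log2FC of 0.09. MRPS18A and MRPS30 are counted here because their proteins sit in the large subunit despite their names. MRPL38, a mitochondria-specific protein of the central protuberance, had 22.0, 20.9, and 20.3 normalised CPM in Control replicates 1 to 3 and 52.7, 45.8, and 53.0 in ATRA replicates 1 to 3. Its lowest ATRA library was above its highest Control library by far more than either group's spread (21.1 ± 0.870 and 50.5 ± 4.06, SD, n = 3). This was the largest rise among the members, 2.39-fold, with a log2FC of 1.26 (SE 0.0783, 95% confidence interval 1.10 to 1.42, edgeR adjusted p = 3.88e-11). The gene's share of all reads on members went from 0.861% ± 0.0284 to 1.88% ± 0.0423 (SD, n = 3), a measure that does not depend on the scaling of libraries. MRPL45, which lies near the exit of the nascent chain tunnel and anchors the ribosome to the inner membrane, had 36.1, 36.4, and 34.1 in Control and 79.8, 74.5, and 83.9 in ATRA. It rose 2.24-fold (log2FC 1.16, SE 0.0675, adjusted p = 1.40e-11). MRPL9, the counterpart of bacterial ribosomal protein L9, rose from 37.2, 36.4, and 36.4 to 75.1, 69.0, and 77.3, which is 2.01-fold. Its log2FC of 1.01 (SE 0.0663, 95% confidence interval 0.87 to 1.15, adjusted p = 9.20e-11) lay just past the DEG threshold of 1, and the interval reached below it. It was no longer a DEG by DESeq2 (log2FC 0.987), RLE scaling (0.987), R's t.test (0.987), or without the filter on low counts (0.996). The member nearest to this threshold on its other side was MRPS25, at -0.93.

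Smaller rises in the large subunit were seen in MRPL57, a mitochondria-specific protein, and MRPL2, whose bacterial counterpart lies close to the peptidyl transferase centre. MRPL57 had 34.9, 36.4, and 35.4 normalised CPM in Control and 59.9, 50.4, and 62.4 in ATRA (log2FC 0.69, SE 0.0789, adjusted p = 2.19e-07). For MRPL2 the Control libraries were at 18.8, 19.2, and 19.9 and the ATRA libraries at 33.4, 27.1, and 32.6 (log2FC 0.68, SE 0.0874, adjusted p = 1.05e-06). ATRA replicate 2 was the lowest ATRA library for both genes and was still above every Control library.

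Among the large subunit genes that fell, MRPL54, a mitochondria-specific protein, had the largest change. It had 19.5, 18.7, and 20.1 normalised CPM in Control and 11.4, 9.14, and 11.5 in ATRA (log2FC -0.87, SE 0.100, adjusted p = 2.72e-07), and it was the only large subunit gene that passed as lower under all 5 scalings. MRPL33, the counterpart of bacterial L33, had 64.5, 74.6, and 58.2 in Control and 43.4, 33.9, and 44.9 in ATRA (log2FC -0.69, SE 0.103, adjusted p = 1.23e-05). MRPL27, whose bacterial counterpart reaches toward the peptidyl transferase centre, went from 23.4, 23.9, and 19.3 to 14.4, 11.9, and 15.3 (log2FC -0.68, SE 0.106, adjusted p = 1.21e-05). MRPL23, a protein at the tunnel exit, went from 23.6, 24.8, and 20.5 to 15.6, 11.5, and 17.0 (log2FC -0.65, SE 0.119, adjusted p = 8.58e-05). MRPL19, at the interface of the subunits, went from 39.0, 37.0, and 34.0 to 25.3, 25.2, and 24 (log2FC -0.56, SE 0.0755, adjusted p = 1.87e-06). The groups did not overlap for any of these 5 genes. By library size only, MRPL33, MRPL27, MRPL23, and MRPL19 kept a negative log2FC, between -0.22 and -0.08, and no longer passed. MRPL12, the stalk protein that recruits translational GTPases, had 39.5, 39.6, and 33.8 in Control and 28.5, 25.4, and 31.5 in ATRA (log2FC -0.40, SE 0.0879, adjusted p = 0.000403), but its log2FC was 0.07 by library size only.

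**Figure D3:**
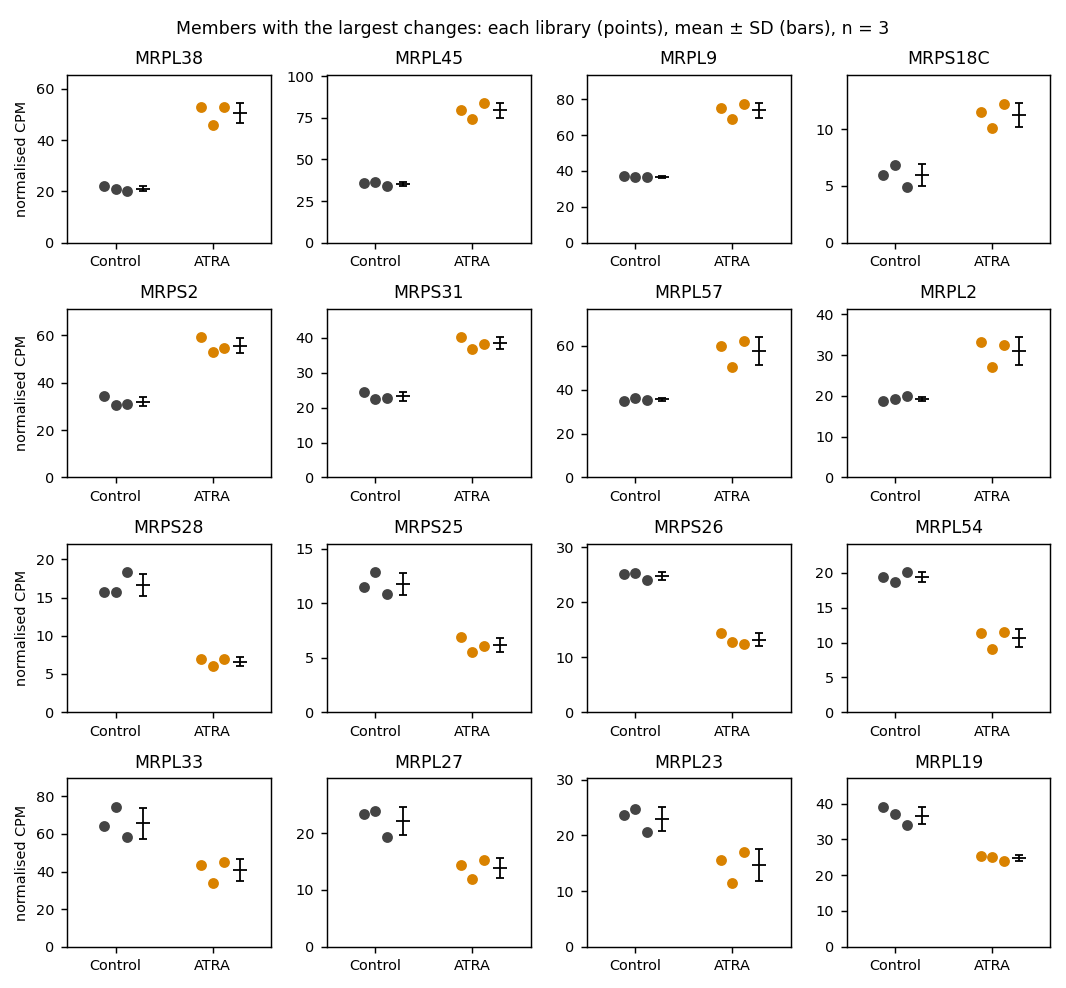
Normalised CPM in each of the 6 libraries for the 8 members with the largest rise (upper 8 panels) and the 8 with the largest fall (lower 8 panels) among those whose groups did not overlap. Points are libraries, bars are the mean ± SD (n = 3), and each axis starts at 0. MRPL38 stood at 20.3 to 22.0 in Control and 45.8 to 53.0 in ATRA, and MRPS28 at 15.8 to 18.4 and 6.01 to 6.96.

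Within the large subunit, 30 genes have bacterial counterparts, and 11 of them were higher, 10 were lower, and 9 did not pass (median log2FC 0.03). Of the 21 mitochondria-specific genes, 11 were higher, 2 were lower, and 8 did not pass (median log2FC 0.16), the lower ones being MRPL54 and MRPL48. No test of the difference between these classes was made. The member with the most reads, MRPL17, the counterpart of bacterial L17, took 6.48% ± 0.123 of the reads on members in Control and 5.89% ± 0.124 in ATRA (SD, n = 3). Its levels were 161, 159, and 156 normalised CPM in Control and 160, 148, and 166 in ATRA, so the groups overlapped (log2FC -0.01, SE 0.0576, 95% confidence interval -0.13 to 0.11, adjusted p = 0.920). MRPL41, a mitochondria-specific protein, also overlapped, with 26.2, 25.4, and 21.9 in Control and 26.3, 21.6, and 26.3 in ATRA (log2FC 0.01, SE 0.0931, 95% confidence interval -0.18 to 0.21, adjusted p = 0.912).

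In the small subunit, 25 genes were tested, of which 9 were higher, 9 were lower, and 7 did not pass, with a median log2FC of 0.08. MRPS28, which is related to bacterial ribosomal protein S1, had the largest fall of any member. It stood at 15.8, 15.8, and 18.4 normalised CPM in Control and 6.96, 6.01, and 6.91 in ATRA (16.6 ± 1.5 and 6.63 ± 0.537, SD, n = 3). Every ATRA library was below every Control library, and the level was 2.51-fold lower (log2FC -1.33, SE 0.107, 95% confidence interval -1.55 to -1.10, adjusted p = 1.68e-09). MRPS25, a mitochondria-specific protein, had 11.5, 12.9, and 10.9 in Control and 6.89, 5.53, and 6.09 in ATRA (log2FC -0.93, SE 0.117, adjusted p = 8.21e-07). MRPS26, likewise mitochondria-specific, had 25.1, 25.3, and 24 in Control and 14.5, 12.7, and 12.3 in ATRA (log2FC -0.91, SE 0.0867, adjusted p = 1.89e-08). All 3 passed as lower under every scaling. The DEG count in this direction was 2 without ATRA replicate 1.

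The small subunit genes with the largest rises were MRPS18C, MRPS2, and MRPS31. MRPS18C, the counterpart of bacterial S18, had the lowest Control level of the members under their own symbol in CPM, which is not scaled by length, with 5.99, 6.86, and 4.95 normalised CPM in Control and 11.5, 10.1, and 12.2 in ATRA (log2FC 0.92, SE 0.128, adjusted p = 2.77e-06). MRPS2, the counterpart of bacterial S2, had 34.3, 30.7, and 31.1 in Control and 59.2, 52.9, and 54.8 in ATRA (log2FC 0.80, SE 0.0727, adjusted p = 1.07e-08). MRPS31, a mitochondria-specific protein, had 24.6, 22.4, and 22.7 in Control and 40.2, 36.9, and 38.4 in ATRA (log2FC 0.73, SE 0.0747, adjusted p = 5.50e-08). The groups were apart in each of these genes. Of 15 tested small subunit genes with bacterial counterparts, 6 were higher and 5 lower (median log2FC 0.08), and of 10 mitochondria-specific ones, 3 were higher and 4 lower (median log2FC 0.10). A row described as the mitochondrial ribosomal protein S17 carried the symbol ZNF713 and was no member by the rule. It had 23.0, 21.8, and 22.4 in Control and 27.0, 23.8, and 28.4 in ATRA (log2FC 0.24, SE 0.0825, adjusted p = 0.0139).

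The 3 paralogs related to bacterial S18 are held by different parts of the ribosome, namely MRPS18A by the large subunit and MRPS18B and MRPS18C by the small one. Beside the rise of MRPS18C given above, MRPS18A had 21.2, 21.9, and 21.9 normalised CPM in Control and 26.6, 23.1, and 27.0 in ATRA (log2FC 0.24, SE 0.0818, adjusted p = 0.0130). MRPS18B overlapped between groups, with 15.6, 16.3, and 15.6 against 16.7, 15.8, and 16.2 (log2FC 0.04, SE 0.0841, 95% confidence interval -0.14 to 0.21, adjusted p = 0.696). The call of MRPS18A was lost without ATRA replicate 1 (adjusted p = 0.0587), ATRA replicate 3 (adjusted p = 0.0792), or Control replicate 1 (adjusted p = 0.0510). The differences between the paralogs' log2FC values were not tested.

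Sums over the members were also compared between libraries. Normalised CPM summed over all members was 2449 ± 71.1 (SD, n = 3; 2369 to 2505) in Control and 2683 ± 159 (SD, n = 3; 2499 to 2777) in ATRA, and the groups overlapped because ATRA replicate 2 was at 2499. The large subunit genes summed to 1700 ± 52.4 and 1893 ± 127, and the small subunit genes to 732 ± 17.0 and 768 ± 31.1 (SD, n = 3). As a share of all counts, members took 0.207% ± 0.00605 in Control and 0.316% ± 0.0153 in ATRA (SD, n = 3). This share was higher in every ATRA library than in any Control library. Reads on small subunit genes per read on large subunit genes numbered 0.428, 0.430, and 0.435 in Control and 0.402, 0.419, and 0.398 in ATRA, so that the groups did not overlap in a ratio that library scaling leaves unaltered. The ratio of MRPL38 to MRPS28 counts, chosen as the members at either end, was 1.28 ± 0.152 in Control and 7.62 ± 0.0569 in ATRA (SD, n = 3), which restates their opposite changes.

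**Figure D4:**
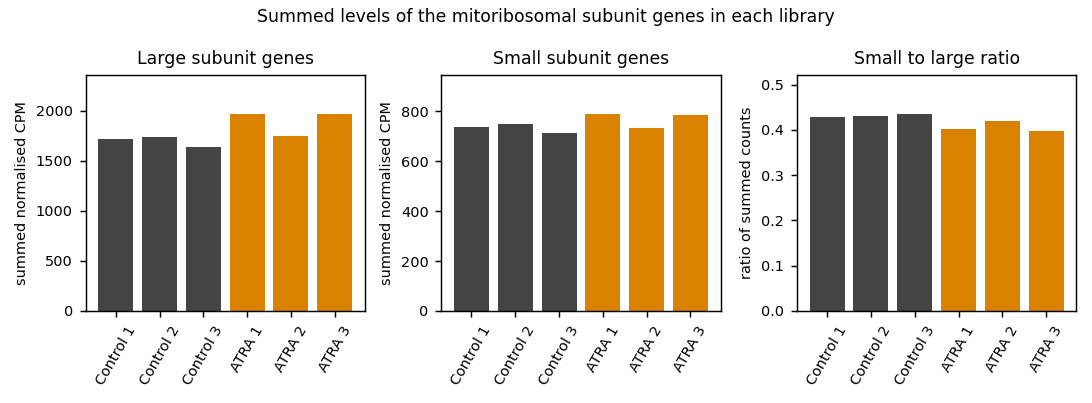
Summed normalised CPM of the large subunit genes and of the small subunit genes in each library, and the ratio of small to large subunit counts. Each bar is 1 library, and all axes start at 0. The ratio was 0.428 to 0.435 in Control and 0.398 to 0.419 in ATRA.

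Several members need care for reasons of annotation. MRPS36 carries a ribosomal name, but its protein is now placed in the mitochondrial oxoglutarate dehydrogenase complex, the annotation the table itself gives for 2 rows. It had 11.6, 13.4, and 10.9 normalised CPM in Control and 17.8, 15.3, and 15.8 in ATRA (log2FC 0.45, SE 0.102, adjusted p = 0.00062). The 6 copies had few reads, and how the counting assigned reads shared with the gene of the same symbol is not given in the sources used here, so their values and those of MRPL1, MRPL13, MRPL15, MRPL37, MRPS10, and MRPS36 are uncertain. The copy with most reads, LOC108636981 (symbol MRPL15), had 99, 104, and 87 counts in Control and 139, 119, and 128 in ATRA (log2FC -0.02, SE 0.168, 95% confidence interval -0.37 to 0.34, adjusted p = 0.929). Of the 4 copies tested, 0 passed by edgeR, by DESeq2, or by R's t.test, and 0 had an unadjusted p under 0.05 by edgeR. LOC102183637 (symbol MRPL1), with 0 to 3 counts per library, and LOC102191735 (symbol MRPL13), with 1 count in all, were not tested. By the RefSeq annotation of the ARS1.2 assembly, used for names and neighbours only, 12 members overlap another gene in the table. Of these 12, 10 were among the members called, beside 65.4% of all members tested and 79.7% of all genes tested. Whether overlap goes with being called was not tested. Without knowledge of strand, reads of such pairs cannot be told apart. MRPL9 overlaps OAZ3, which had a mean of 15 counts in Control and 41 in ATRA beside 1168 and 3163 for MRPL9. MRPL14, MRPL49, and MRPS34, called higher, overlap TMEM63B, SYVN1, and EME2. Mean counts of these neighbours were 1208, 1651, and 378 in Control and 4321, 4862, and 1056 in ATRA. The members had 1624, 2007, and 992 in Control and 3436, 3269, and 1581 in ATRA. MRPS9, also called higher, overlaps LOC102186210, whose log2FC was -1.17. MRPL33 and MRPL27, called lower, overlap RBKS (log2FC -0.42) and EME1 (log2FC 0.24). MRPS6, called lower at -0.26, overlaps SLC5A3, whose log2FC was 2.44. MRPL38 and MRPS25 overlap long noncoding RNAs for which no values were used here.

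The other genes of mitochondrial translation also went both ways. Of 5 mitoribosomal proteins without an MRP symbol, PTCD3 of the small subunit rose from 34.3, 31.2, and 33.3 normalised CPM to 52.1, 51.4, and 51.4 (log2FC 0.65, SE 0.0677, adjusted p = 6.73e-08). AURKAIP1, also of the small subunit, fell from 34.2, 36.3, and 33.4 to 26.5, 21.9, and 27.3 (log2FC -0.46, SE 0.0858, adjusted p = 8.52e-05), although its log2FC was 0.02 by library size only. DAP3 (log2FC -0.12, SE 0.0785) and CHCHD1 (-0.13, SE 0.102) of the small subunit and GADD45GIP1 (-0.20, SE 0.114) of the large one did not pass. Among 27 genes for mitoribosome assembly and rRNA modification, 16 were higher, 4 were lower, and 7 did not pass, with a median log2FC of 0.27. DDX28, an RNA helicase needed to build the large subunit, had 7.18, 7.88, and 6.82 in Control and 18.6, 17.0, and 18.1 in ATRA (log2FC 1.29, SE 0.0983, adjusted p = 7.64e-10). METTL15, which methylates the small subunit rRNA, had 13.6, 13.2, and 13.4 in Control and 6.55, 9.32, and 8.02 in ATRA (log2FC -0.75, SE 0.118, adjusted p = 1.31e-05).

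Of 16 translation factors tested, 7 were higher, 2 were lower, and 7 did not pass (median log2FC 0.12). OXA1L, which inserts newly made proteins into the inner membrane, had 119, 111, and 109 normalised CPM in Control and 222, 222, and 235 in ATRA (log2FC 1.00, SE 0.0573, adjusted p = 1.11e-11). PDF, the deformylase that acts on the first methionine of new chains, had 5.22, 5.10, and 3.77 in Control and 2.50, 2.09, and 1.81 in ATRA (log2FC -1.14, SE 0.183, adjusted p = 1.68e-05). Among 14 genes for replication and transcription of mitochondrial DNA, 7 were higher and 4 lower (median log2FC 0.21), with POLG2, the accessory subunit of its DNA polymerase, at 1.32 (SE 0.0959, adjusted p = 3.83e-10) and MGME1, a nuclease, at -1.25 (SE 0.130, adjusted p = 6.63e-08). Among 9 nuclear regulators of mitochondrial genes, 4 were higher and 3 lower (median log2FC 0.10). ESRRA, a nuclear receptor, had 27.8, 27.6, and 25.6 in Control and 51.2, 47.3, and 52.7 in ATRA (log2FC 0.90, SE 0.0726, adjusted p = 1.83e-09). The coactivator PPARGC1A had 20, 20, and 25 counts in Control and 5, 20, and 5 in ATRA (log2FC -1.54, SE 0.453, adjusted p = 0.00479), with ATRA replicate 2 apart from the other 2 in counts. The messenger RNAs made from mitochondrial DNA were not analysed here.

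The cytosolic ribosome and the respiratory complexes were described in the same way for scale. Of 77 cytosolic ribosomal protein genes tested, 60 were higher, 2 were lower, and 15 did not pass (median log2FC 0.34), with values from -0.78 for RPL3 (SE 0.0654) to 0.75 for RPS21 (SE 0.172). Of 41 genes for subunits of respiratory complexes I and II, 7 were higher, 18 were lower, and 16 did not pass (median log2FC -0.13), with values from -0.78 for NDUFS1 (SE 0.0589), which carries electrons in complex I, to 0.85 for NDUFB1 (SE 0.184), an accessory subunit of the same complex. Set beside these, mitoribosomal genes had 32 higher, 21 lower, and 28 not passing and a median of 0.09. The differences between the groups were not tested. By library size only, the complex I and II genes had 27 higher and 3 lower, the opposite balance. That scaling moved all genes upward, with 62.9% of all genes higher and 22.7% lower. By R's t.test, the complex I and II genes had 3 higher and 8 lower. R's t.test called 27 cytosolic genes higher, fewer than edgeR by over 1.5 times. Among complex I and II genes there were 13 higher without ATRA replicate 2 and 11 higher without Control replicate 2, and the 2 lower cytosolic genes were 4 without ATRA replicate 3. The shares of all genes called by R's t.test or without these libraries were not counted, so these counts are no result about either list.

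**Figure D5:**
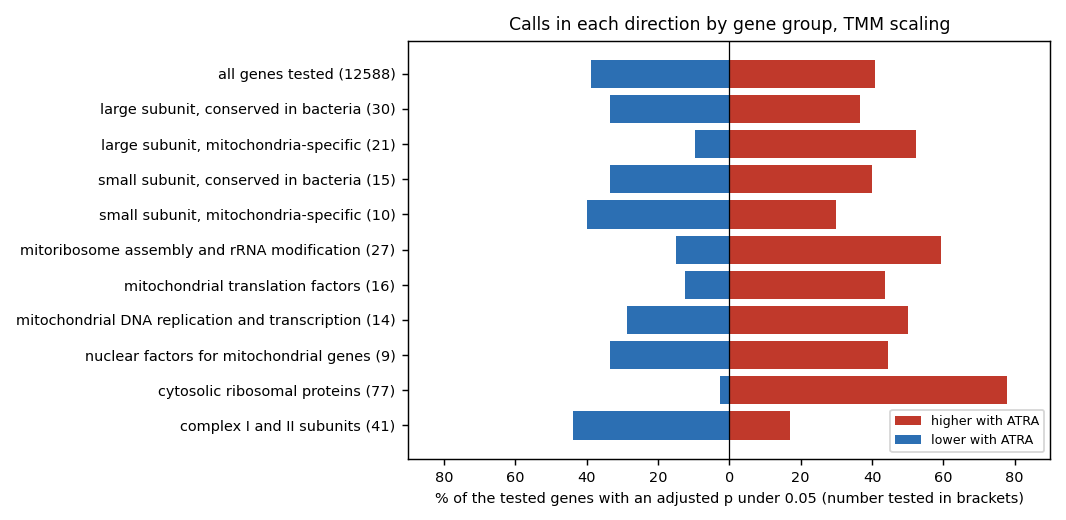
Percent of the tested genes with an edgeR adjusted p under 0.05, with those higher in ATRA to the right and those lower to the left. Rows are all genes tested, the mitoribosomal groups, other mitochondrial gene lists, the cytosolic ribosomal proteins, and complexes I and II. Of all genes, 40.9% were higher and 38.7% lower. For cytosolic ribosomal proteins these were 77.9% and 2.6%, and for complexes I and II 17.1% and 43.9%.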

How the data were processed

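SHF-DPC libraries (3 Control, 3 ATRA) were analysed from the deposited table of read counts per gene. Per the study's methods and the submitters' processing notes, the authors enriched poly(A) RNA, trimmed reads with fastp and TrimGalore, and used HISAT2, featureCounts, and DESeq2. The deposited counts are raw whole numbers without any scaling. Genome build, strand setting, and treatment of shared reads are not given in the sources used here. All 6 per-sample columns were used. Replicates come from separate animals per the study's methods.

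Counts of genes kept by edgeR's expression filter (12588 of 15944) were scaled by TMM and tested with the quasi-likelihood test (edgeR 4.0.16, limma 3.58.1, R 4.3.3; robust, two-sided, all 6 libraries, no covariate), with Benjamini-Hochberg adjustment over all genes tested and a threshold of 0.05. For DEGs, the cut-offs of the study were kept, a log2FC beyond 1 in either direction with a raw p-value threshold of 0.05. A prior count of 0.125 was used. SE is the absolute log2FC over the square root of F, and intervals are at 95%. Normalised CPM divides counts by the total over tested genes times the TMM factor, expressed as CPM. It is not divided by transcript length, so levels are compared between libraries and not between genes. The shallowest library had 35532339 counts.

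The members and the gene lists were chosen with earlier results of these data known. Members named with values are the 8 highest and 8 lowest by log2FC among those passing with groups that did not overlap, all DEGs, the 3 nearest to 0, the MRPS18 paralogs, MRPS36, MRPL12, and untested members, and for other lists the extreme gene in each direction. A few others (MRPL14, MRPL48, MRPL49, MRPS6, MRPS9, MRPS34, the row described as S17, and the overlapping neighbours) were named after their values were seen. Alternatives were RLE, upper quartile, and library-size scaling, TMM without the 100 most abundant genes, no filter on low counts, a filter of CPM 1 or more in 3 or more libraries, DESeq2 1.42.0, R's t.test on log2(CPM + 1) (the study's methods name this function), for medians, the log2 ratio of group mean CPM values (pseudocount 1), a replicate block, and leaving out each library. No genome or sequence table was used, so sequences and coordinates are not given.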

Additional observations from a re-analysis of the deposited data

How the results depend on the processing

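Library-size scaling moved most counts. It gave 64 members higher and 4 lower, DEGs of 10 higher and 0 lower (edgeR), and median log2FC values of 0.57 for all members, 0.57 for the large subunit, and 0.56 for the small subunit. Over all genes, this scaling gave 62.9% higher and 22.7% lower, 38.6% as DEGs in either direction, and a median log2FC of 0.52. It gave 4 higher and 0 lower among the 5 mitoribosomal proteins without an MRP symbol, all with a log2FC above 0, 25 and 1 among assembly genes, 14 and 1 among translation factors, and 27 and 3 among complex I and II genes, with 2 lower among mitochondrial DNA genes and 1 lower among cytosolic ribosomal proteins. It turned the log2FC of MRPL17 to 0.47, LOC108636981 to 0.46, MRPL12 to 0.074, DAP3 to 0.36, AURKAIP1 to 0.017, CHCHD1 to 0.34, and GADD45GIP1 to 0.28. Upper quartile scaling gave 2 assembly genes lower and 12 complex I and II genes higher, and turned MRPL17 to 0.070 and LOC108636981 to 0.059. RLE scaling, DESeq2, and no filter each gave 4 cytosolic genes lower and turned MRPL41 to -0.0088, -0.0088, and -0.00020, and the CPM minimum turned MRPL17 to 0.0064. R's t.test gave 21 members higher, 2 assembly genes lower, 27 cytosolic genes higher, and 3 higher and 8 lower complex I and II genes. The share of all genes called by that test was not counted, so these counts are no result about the members or lists. The cause of these moves was not tested.

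Leaving out each library gave 25 to 37 members higher, 19 to 21 lower, and DEGs of 2 to 4 higher and 1 to 2 lower. The shares of all genes called in these fits were not counted. The ranges of counts in this paragraph are therefore no result about the members or the lists. Median log2FC ran from 0.05 to 0.15 over all members, 0.05 to 0.12 in the large subunit, and 0.03 to 0.11 in the small. The ranges of higher and lower counts were 1 to 1 and 1 to 2 (2 without Control replicate 3) for proteins without an MRP symbol, 13 to 16 and 2 to 3 (2 without ATRA replicate 2) for assembly genes, 5 to 7 and 2 to 2 for translation factors, 6 to 7 and 3 to 4 for mitochondrial DNA genes, 3 to 4 and 3 to 3 for nuclear regulators, 49 to 67 and 2 to 4 for cytosolic genes, and 6 to 13 and 15 to 19 for complex I and II genes. Signs changed for the 3 members nearest to 0, MRPL17 (-0.053 to 0.030, above 0 without ATRA replicate 2), MRPL41 (-0.069 to 0.091), and LOC108636981 (-0.10 to 0.046), none of which passed. Same-numbered Control and ATRA libraries did not deviate together (r = 0.0892, 0.0299, and -0.0764), and differently numbered ones ran from -0.135 to 0.100. With 3 libraries per group, such values cannot show whether cultures of the same number shared an animal. With the replicate number as a block, 32 members were higher and 21 lower, with 3 and 1 DEGs, and of the named genes only RPS21 lost its call (log2FC 0.74, adjusted p = 0.0953). At this depth and with 3 libraries per group, the members under their own symbol that did not pass had log2FC values from -0.17 to 0.18.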
